A study of Mus musculus with 36 samples.

Results

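The laminin chains, nidogens and perlecan of the basement membrane were described in mouse gastrocnemius, a calf muscle made mainly of fast fibers. The members were the 10 genes whose names in the count table were Lama2, Lama4, Lama5, Lamb1, Lamb2, Lamc1, Lamc3, Nid1, Nid2 and Hspg2, out of 46893 features in all. Each name stood on 1 row. RNA was sequenced from 36 wild-type (WT) C57BL/6 male mice, 6 in each of 6 groups, which were 3 to 4 weeks old at the start and were studied for 12 weeks. The sedentary groups were NFD-C, fed the AIN93G diet, and HFD-C, fed the high-fat diet (HFD). Mice of the exercise groups ate the HFD and could use a running wheel in the cage, which was braked so that the mice averaged 2.1 km/day (HFD-25%), 4.2 km/day (HFD-50%) or 6.3 km/day (HFD-75%), or was left free, at an average of 8.3 km/day (HFD-U). The distances are group averages, only males were used, and no group ran on the AIN93G diet.

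The basement membrane is a thin sheet of matrix that surrounds every muscle fiber and also underlies the endothelium of capillaries and wraps Schwann cells. A laminin is a trimer of 1 alpha, 1 beta and 1 gamma chain, and the alpha chain carries the site that binds dystroglycan and integrins on the cell. Laminin trimers polymerize into a network, nidogens link that network to the collagen IV network, and perlecan, a large heparan sulfate proteoglycan, binds both and holds growth factors. In adult muscle the laminin with the alpha 2, beta 1 and gamma 1 chains is the main form around the fiber, loss of alpha 2 causes a congenital muscular dystrophy, and the alpha 4 and alpha 5 chains are known from vessels and nerve.

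Promoters were available from RefSeq (GRCm38.p6) for 6 of the 10 members, as windows of 300 bases around the gene start. Those of 4 members are shown, because Hspg2, Lama2 and Nid1 varied together from mouse to mouse and Lama5 did not follow them. Lamb1, whose window is not shown, varied with Hspg2, Lama2 and Nid1 as well. Capitals mark each GC box, searched as GGGCGG on either strand, so that its reverse complement CCGCCC is also in capitals. Matches do not overlap.
Hspg2, chr4:137468553-137468852, plus strand: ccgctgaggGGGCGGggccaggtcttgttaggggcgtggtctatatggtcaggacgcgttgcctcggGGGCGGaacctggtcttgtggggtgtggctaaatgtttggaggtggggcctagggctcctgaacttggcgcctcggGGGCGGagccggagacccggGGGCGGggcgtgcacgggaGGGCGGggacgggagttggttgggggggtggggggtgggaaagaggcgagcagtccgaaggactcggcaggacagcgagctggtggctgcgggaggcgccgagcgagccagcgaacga
Lama2, chr10:27616893-27617192, minus strand: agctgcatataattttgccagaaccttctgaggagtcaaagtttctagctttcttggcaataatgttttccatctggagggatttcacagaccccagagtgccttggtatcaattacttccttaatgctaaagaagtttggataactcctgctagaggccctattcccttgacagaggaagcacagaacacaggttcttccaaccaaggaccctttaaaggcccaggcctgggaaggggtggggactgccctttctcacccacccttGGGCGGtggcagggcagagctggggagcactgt
Nid1, chr13:13437352-13437651, plus strand: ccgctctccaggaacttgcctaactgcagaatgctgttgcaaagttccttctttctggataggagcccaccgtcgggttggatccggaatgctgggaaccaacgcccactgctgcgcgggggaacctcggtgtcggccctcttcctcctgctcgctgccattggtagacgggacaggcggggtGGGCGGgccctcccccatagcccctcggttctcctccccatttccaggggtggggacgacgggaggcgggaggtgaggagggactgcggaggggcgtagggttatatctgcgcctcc
Lama5, chr2:180225810-180226109, minus strand: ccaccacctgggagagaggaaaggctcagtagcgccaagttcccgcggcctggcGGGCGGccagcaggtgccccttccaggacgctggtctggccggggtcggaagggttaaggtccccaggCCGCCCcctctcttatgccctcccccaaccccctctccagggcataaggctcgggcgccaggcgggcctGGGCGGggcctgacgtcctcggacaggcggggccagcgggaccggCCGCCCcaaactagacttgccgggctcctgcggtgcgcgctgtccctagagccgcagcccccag

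The GC box stood 5 times in the Hspg2 window, 4 times in that of Lama5 and 1 time each in those of Lama2 and Nid1. Of all 32851 promoters of this length in the table, 35.7% held at least 1 GC box. The GC content was 70.3% for Hspg2 and 72.7% for Lama5, against 64.7% for Nid1, 50.3% for Lama2 and a median of 52.7% over all promoters. The CCAAT box, searched as CCAAT on either strand, was found 1 time in the Nid1 window and in none of the other windows shown, and 37.4% of all promoters held it. The windows of Lamb1 and Lamb2, not shown, held 2 and 0 GC boxes and 1 and 0 CCAAT boxes. A match is a stretch of letters and not a shown binding site.

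Between 13060090 and 27981702 counts fell on genes per library, with a median of 16710687.5. The share of these counts on 5 features that carry ribosomal RNA or similar sequence (the rRNA-linked share, of which Lars2 is one feature) split the libraries into sets. It was 2.01 to 3.80% in NFD-C and 2.12 to 3.54% in the HFD-C mice numbered 1 to 4, but 0.551 and 0.626% in the HFD-C mice numbered 5 and 6 and 0.404 to 1.02% in the 24 running mice. A high and a low share therefore nearly coincided with sedentary and running, and values within this split are given beside several of the results. Muscle fiber markers were abundant in every library, with a summed level of 99048 to 189443 CPM over 11 genes. Levels are given as CPM, counts scaled to the library size with TMM factors, and as FPKM, the same values per kilobase of the gene model, where genes are compared with each other. In whole muscle, fewer cells of a type and less RNA per cell cannot be told apart.

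All 10 members were detected in all 36 mice, at levels that spanned from 0.249 to 19.4 FPKM on average. Per length, Lamb2 was the highest member at 19.4 ± 2.46 FPKM (SD, n = 36). It was followed by Hspg2 at 11.4 ± 3.48, Lamc1 at 10.3 ± 1.95 and Nid1 at 9.09 ± 2.15 FPKM. Lama5 at 5.09 ± 1.05, Lamb1 at 3.20 ± 0.75, Lama2 at 2.53 ± 0.50 and Lama4 at 2.42 ± 0.61 FPKM lay below these. Nid2 was at 1.37 ± 0.32 FPKM and Lamc3 at 0.249 ± 0.173 FPKM. Some neighbors in this order did not separate. Hspg2 was above Lamc1 in 20 of 36 mice and Lama2 was above Lama4 in 17 of 36 mice, while Lama4 was above Nid2 and Nid2 above Lamc3 in all 36. Other laminin chain genes were scarce, since Lama3 and Lamb3 averaged 1.47 and 0.689 CPM and Lama1 had 0 counts in 29 of 36 libraries.

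**Figure D1:**
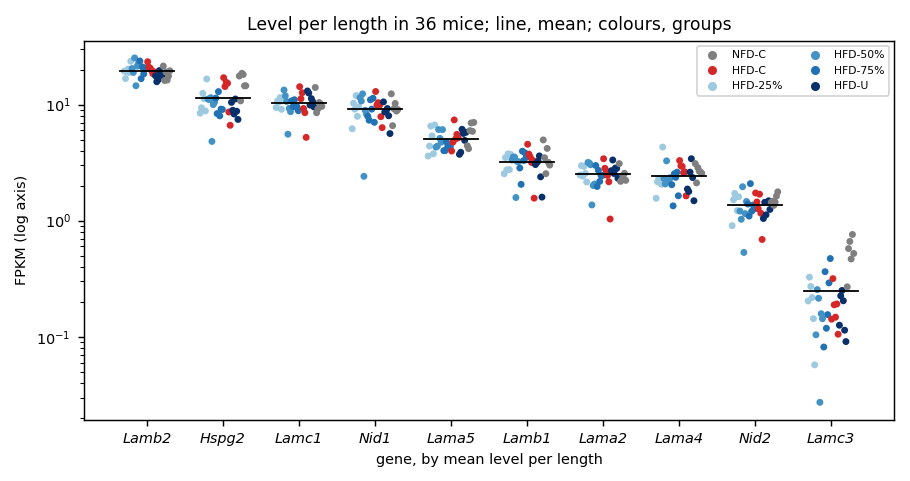
Level per length (FPKM, log axis) of the 10 members in order of their mean, with 1 point per mouse colored by group and a line at the mean of 36 mice. Lamb2 averaged 19.4 FPKM and Lamc3 0.249 FPKM, where the NFD-C points lie above most others.

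One member held most of the RNA per length among the beta chains, the gamma chains and the nidogens, and the alpha chains were more evenly divided. Lama5, which encodes the alpha chain widespread in epithelial and vessel basement membranes, made up 50.6 ± 6.18% of the alpha chain sum (SD, n = 36), ahead of Lama2 at 25.5 ± 5.57% and Lama4 at 23.9 ± 3.57%. Lama5 ranged from 37.2 to 65.9% and Lama2 from 13.2 to 37.0% of that sum, so these chains did not overlap over the 36 mice, whereas Lama4, at 15.5 to 32.8%, overlapped with Lama2. Lamb2, whose chain is concentrated at the neuromuscular junction and in vessels, made up 85.9 ± 2.78% of the beta sum, and Lamc1 made up 97.6 ± 1.73% of the gamma sum. Nid1 made up 86.7 ± 2.51% of the nidogen sum. The alpha, gamma and nidogen sums were alike at 10.03 ± 1.49, 10.6 ± 1.95 and 10.5 ± 2.36 FPKM, and the beta sum was 22.6 ± 2.85 FPKM. These shares depend on the gene model lengths of the count table, which need not be the lengths of the transcripts used in muscle.

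The exercise groups were each set against HFD-C to ask whether a running distance changes expression on the HFD. Few members differed, and no member passed an adjusted p of 0.05 in edgeR's quasi-likelihood test in any of these comparisons. In HFD-25%, 0 of 10 members passed an unadjusted p of 0.05, the limit used in the study, where 6.98% of all genes tested did, and 0.0082% of all genes passed the adjusted limit. In HFD-50%, 0 of 9 members passed (10.7% of all genes unadjusted, 0% adjusted), Lamc3 being under the minimum mean count of 25 there. In HFD-75%, 1 of 10 passed (5.47% unadjusted, 0% adjusted). In HFD-U, 2 of 10 passed (5.46% unadjusted, 0% adjusted). With all 24 runners together, 1 of 10 passed (9.27% unadjusted, 0.3% adjusted). The median log2 fold change of the members was -0.06 in HFD-25% and -0.08 in HFD-50%, against -0.01 and 0.01 over all genes tested. It was -0.03 in HFD-75% and -0.14 in HFD-U, where the median of all genes was within 0.01 of 0. These comparisons share the HFD-C mice, so their values are not independent of each other.

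**Figure D2:**
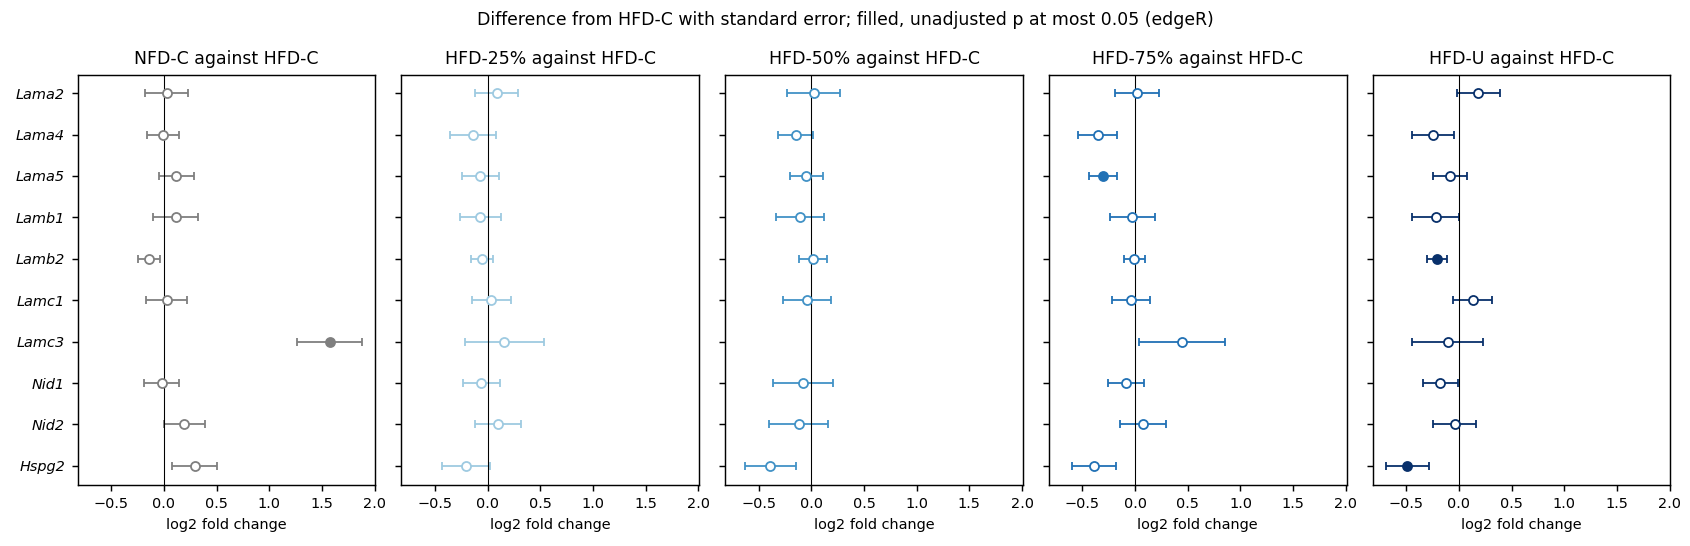
Log2 fold change of each member from HFD-C (edgeR) in the 5 comparisons with 6 mice a group; bars are standard errors and filled points have an unadjusted p of at most 0.05. The filled points are Lamc3 in NFD-C at 1.57, Lama5 in HFD-75% at -0.30, and Hspg2 at -0.49 and Lamb2 at -0.21 in HFD-U.

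Among the alpha chains, only Lama5 passed the unadjusted limit in a comparison with HFD-C. Lama5 (chr2:179818166-179868092, minus strand, GRCm39) ranged from 48.1 to 89.0 CPM in HFD-C, with a median of 61.7. In HFD-75% the lowest, median and highest mouse had 48.4, 52.0 and 57.7 CPM. All 6 HFD-75% mice were below the HFD-C median, but none was below the lowest HFD-C mouse. Lama5 was lower in HFD-75% by a log2 fold change of -0.30 ± 0.13 (SE), which passed the unadjusted limit but not the adjusted one (edgeR, adjusted p = 0.871). Without any 1 of the HFD-C mice numbered 3 and 5 or the HFD-75% mice numbered 1, 2, 5 and 6, the unadjusted limit was no longer met. The difference was -0.32 with the low-share libraries alone, which left 2 HFD-C mice, and still past that limit. With the share as a covariate it was -0.36 and no longer past it (edgeR, adjusted p = 0.594). In the other exercise groups the Lama5 log2 fold change lay between -0.08 and -0.05.

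A split of Lama5 between some mouse numbers, which the labels give without saying what they stand for, was noticed after the values were seen and is described only. The 6 mice numbered 1 had 43.5 to 53.4 CPM and the 6 numbered 2 had 46.9 to 57.4 CPM, while those numbered 3 had 57.7 to 89.0 CPM. The mice numbered 1 and 3 did not overlap. How many of all genes separate these mice was not counted, so the split cannot be called particular to Lama5. The mice numbered 4, 5 and 6 had 52.6 to 83.9, 45.5 to 71.0 and 52.6 to 84.8 CPM. Each of these ranges overlapped with that of the mice numbered 1 and with that of the mice numbered 3. What lies behind the numbers was not tested.

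Lama2 (chr10:26857281-27493021, minus strand, GRCm39), the main alpha chain around the fiber, had group means from 28.9 ± 9.53 CPM in HFD-C to 32.8 ± 4.05 CPM in HFD-U (SD, n = 6). The lowest, median and highest HFD-C mice had 12.3, 30.5 and 40.6 CPM, and the HFD-U mice had 27.6, 32.8 and 39.6 CPM. The groups overlapped almost fully, and the log2 fold changes from HFD-C were between 0.02 and 0.18 in the exercise groups with standard errors of 0.20 to 0.25. Lama4 (chr10:38841511-38986184, plus strand, GRCm39), the alpha chain of endothelial basement membranes, averaged 16.2 ± 3.45 CPM in HFD-C and 12.6 ± 3.10 CPM in HFD-75%. All 6 HFD-75% mice were below the HFD-C median of 16.8 CPM. The log2 fold change was -0.35 ± 0.19 (SE; edgeR, adjusted p = 0.960), and in the other exercise groups it was between -0.25 and -0.14. The unadjusted limit was met in HFD-75% without the HFD-C mouse numbered 6 or the HFD-75% mouse numbered 5, and in HFD-U without the HFD-U mouse numbered 4.

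Ratios between members were also compared within a library, which does not depend on how libraries are scaled. The log2 ratio of Lama2 to Lama4 per length was -0.20 ± 0.25 in HFD-C, 0.26 ± 0.34 in HFD-75% and 0.34 ± 0.44 in HFD-U (SD, n = 6). It was higher by 0.46 in HFD-75% (exact two-sided permutation test, p = 0.0303) and by 0.53 in HFD-U (p = 0.0281, exact permutation test). Over the 25 tests of 5 ratios in 5 comparisons both adjusted p-values were 0.379, so neither passed, and 0 of 25 did. The smallest p that this design allows is 0.00216. With the low-share libraries alone, which left 2 HFD-C mice, the Lama2 to Lama4 ratio was higher by 0.73 in HFD-75% (exact permutation test, p = 0.0357, the smallest possible there) and by 0.81 in HFD-U (exact permutation test, p = 0.0714), and both adjusted p-values were 0.357. The ratios of Lama2 to Lama5, Lamb2 to Lamb1, Nid1 to Nid2 and Lamc1 to Lama2 gave adjusted p-values of 0.796 or more. The Lamc1 to Lama2 ratio was the most even, with group means between 2.01 and 2.09 on the log2 scale.

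Of the beta chains, Lamb2 (chr9:108357046-108367729, plus strand, GRCm39) was lower in HFD-U. The lowest, median and highest mouse had 104, 113 and 132 CPM in HFD-C and 88.7, 100.1 and 111 CPM in HFD-U. All 6 HFD-U mice were below the HFD-C median, and 5 of 6 were below the lowest HFD-C mouse. The log2 fold change was -0.21 ± 0.09 (SE), past the unadjusted limit only (edgeR, adjusted p = 0.891). That limit was no longer met without any 1 of 8 mice, which were the HFD-C mice numbered 1, 2 and 3 and the HFD-U mice numbered 1, 2, 3, 5 and 6. It was also not met with the share as a covariate, at -0.06, with the low-share libraries alone, at -0.10, with no minimum count, at -0.20, or in 1 fit over all 6 groups, at -0.21. Lamb2 in HFD-25%, HFD-50% and HFD-75% had log2 fold changes of -0.05, 0.02 and -0.01. Lamb1 (chr12:31315230-31379643, plus strand, GRCm39), the beta chain of the laminins along the fiber, had group means from 16.6 ± 4.27 CPM in HFD-U to 20.8 ± 5.13 CPM in NFD-C (SD, n = 6). Its log2 fold changes from HFD-C were between -0.22 and -0.03 in the exercise groups and none passed the unadjusted limit.

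Of the gamma chains, Lamc1 (chr1:153094668-153208532, minus strand, GRCm39), the common gamma chain of muscle laminins, was even across the groups. Its group means ran from 75.4 ± 6.31 CPM in HFD-75% to 85.0 ± 10.9 CPM in HFD-U, with 77.6 ± 24.6 CPM in HFD-C (SD, n = 6). Its log2 fold changes from HFD-C lay between -0.04 and 0.13, with standard errors of 0.18 to 0.23. Lama2 and Lamc1 were both lower in the HFD-C mice of low rRNA-linked share. The 4 high-share HFD-C mice had 29.2 to 40.6 CPM of Lama2 and 70.5 to 108.6 CPM of Lamc1, and the other 2 had 12.3 and 25.7 CPM of Lama2 and 39.8 and 64.9 CPM of Lamc1. Against these 2 mice alone, the 24 runners were higher by a log2 fold change of 0.68 for Lama2 (edgeR, adjusted p = 0.197) and 0.59 for Lamc1 (adjusted p = 0.187), both past the unadjusted limit. The HFD-U mice of low share were higher than these 2 HFD-C mice by 0.78 for Lama2 and 0.70 for Lamc1 (edgeR, adjusted p = 0.323 and adjusted p = 0.293). Both were again past that limit, as were 1390 of 11776 genes. The part of the share in these values was not tested.

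Lamc3 (chr2:31777293-31839095, plus strand, GRCm39), a gamma chain known from the nervous system and vessels, was the member that differed most by diet. NFD-C was compared with HFD-C to set the diets against each other in sedentary mice. The lowest, median and highest mouse had 2.28, 4.65 and 6.45 CPM in NFD-C and 0.893, 1.43 and 2.69 CPM in HFD-C. Of the 6 NFD-C mice, 5 were above all HFD-C mice, and the sixth lay within their range. Lamc3 was higher in NFD-C by a log2 fold change of 1.57 ± 0.31 (SE; edgeR, adjusted p = 0.795), a ratio of the means of 2.98. DESeq2 gave an adjusted p of 0.00508 for the same gene, and 2 of 12247 genes passed adjustment in that fit. The counts behind these values were small, at 52 to 107 per library in NFD-C and 13 to 52 in HFD-C. In edgeR, Lamc3 was the only 1 of 10 members past the unadjusted limit in this comparison, where 4.12% of all genes were. There, 0% of all genes passed the adjusted limit.

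The difference in Lamc3 was about as large within the high-share libraries. With high-share libraries alone, 6 NFD-C and 4 HFD-C mice, it was 1.45 and again past the unadjusted limit (edgeR, adjusted p = 0.869). As a share of the gamma chains per length, Lamc3 was 5.23 ± 1.93% in NFD-C and 1.83 ± 0.62% in HFD-C (SD, n = 6), and its group means in the exercise groups were 1.44 to 2.51%. The runners had 0.231 to 4.002 CPM with a median of 1.53, which overlapped with HFD-C. In the exercise groups that could be tested, the Lamc3 log2 fold change from HFD-C was between -0.11 and 0.45, with standard errors of 0.34 to 0.41. Markers of fibroblasts (0 of 10), endothelium (0 of 12) and Schwann cells (0 of 5 tested) did not pass the unadjusted limit between NFD-C and HFD-C, whereas 1 of 8 mural cell markers (Notch3) was higher and 1 of 7 macrophage markers (Cd68) was lower in NFD-C. The summed level of 7 slow fiber markers was 26.6 to 1693 CPM in NFD-C and 119 to 2255 CPM in HFD-C, and its part in the difference was not tested.

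**Figure D3:**
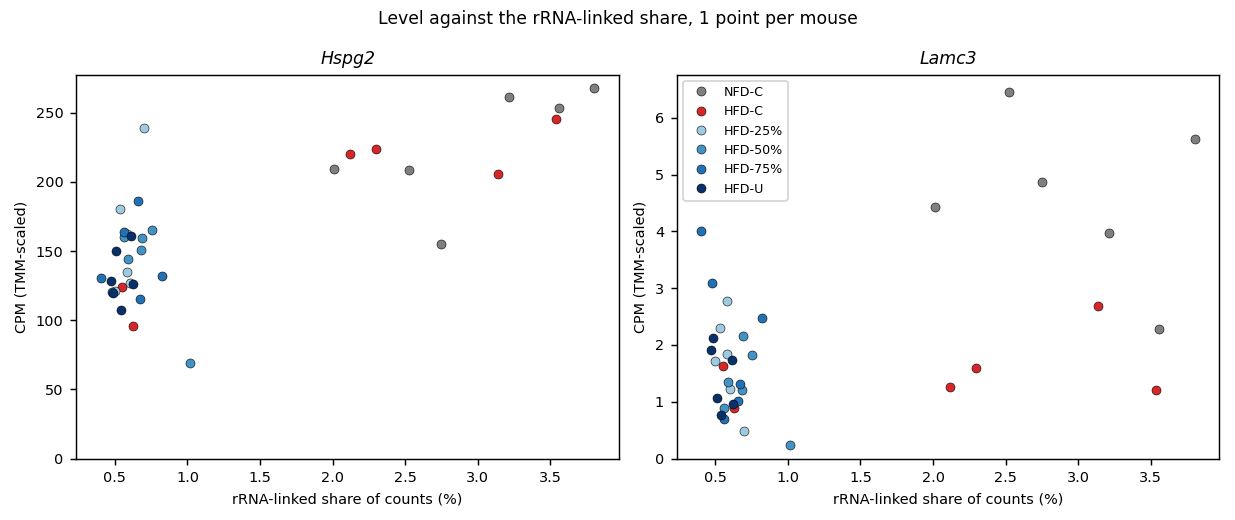
Level (CPM) of Hspg2 and Lamc3 against the rRNA-linked share of counts in percent, with 1 point per mouse colored by group. Hspg2 is at 206 to 245 CPM in the high-share HFD-C mice and at 95.5 and 124 CPM in the low-share ones. Lamc3 is higher in most NFD-C mice than in HFD-C mice at like shares. The lowest NFD-C mouse, at 2.28 CPM, lies under the highest HFD-C mouse, at 2.69 CPM.

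The group means of the nidogens lay close together. Nid1 (chr13:13612187-13686860, plus strand, GRCm39) had group means from 51.1 ± 9.85 CPM in HFD-U to 57.8 ± 13.7 CPM in HFD-C (SD, n = 6), and its log2 fold changes from HFD-C were between -0.17 and -0.02. Over all genes, deviations of same-numbered mice in HFD-U and HFD-C had r of 0.123 to 0.504. Mice of different numbers were not correlated, so a link by number is not shown. With the mouse number as a replicate block 3 of 10 members passed the unadjusted limit in HFD-U, where 1232 of 12023 genes did. Nid1 was added there at -0.16 (edgeR, adjusted p = 0.485). Nid2 (chr14:19801325-19861855, plus strand, GRCm39) had group means from 5.98 ± 2.31 CPM in HFD-50% to 7.41 ± 0.75 CPM in NFD-C, and its log2 fold changes from HFD-C were between -0.12 and 0.19. Both were lower in the HFD-C mice of low share, with means of 42.9 CPM of Nid1 and 4.52 CPM of Nid2 against 65.2 and 7.50 CPM in the HFD-C mice of high share. With the share as a covariate, Nid1 was higher in HFD-75% by 0.39 (edgeR, adjusted p = 0.572) and Nid2 was higher in HFD-25% by 0.61 (edgeR, adjusted p = 0.361), both past the unadjusted limit, and with the low-share libraries alone neither was past it. Nid2 shares 386 bases with Rtraf on the opposite strand, which had a mean count of 1945 against 117 for Nid2. The sources used here do not say that counting used strand, so the Nid2 counts are uncertain.

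Hspg2 (chr4:137196062-137297941, plus strand, GRCm39), which encodes perlecan, had the largest log2 fold changes among the members in HFD-U and with all runners together. The lowest, median and highest mouse had 95.5, 213 and 245 CPM in HFD-C. The same values were 121, 149 and 239 CPM in HFD-25%, 69.4, 155 and 165 CPM in HFD-50%, 115, 131 and 186 CPM in HFD-75%, and 107, 127 and 161 CPM in HFD-U. Of the runners, 5 of 6 in HFD-25% and all 6 in each of the other groups were below the HFD-C median. Only 1 runner was below the lowest HFD-C mouse.

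The log2 fold change of Hspg2 from HFD-C was -0.21 ± 0.23 in HFD-25% and -0.39 ± 0.24 in HFD-50% (SE). With the longer distances it was -0.39 ± 0.21 in HFD-75% and -0.49 ± 0.20 in HFD-U. It passed the unadjusted limit in HFD-U (edgeR, adjusted p = 0.845) and with all runners together, at -0.37 ± 0.16 (adjusted p = 0.448). The limit was no longer met in HFD-U without any 1 of 6 mice, the HFD-C mice numbered 1 to 4 and the HFD-U mice numbered 3 and 6. It was met in HFD-50% without the HFD-C mouse numbered 6, at -0.53, and in HFD-75% without 1 of the HFD-C mice numbered 5 and 6 or the HFD-75% mouse numbered 3. A dose response to distance, fitted with linear and quadratic terms over the 30 mice on the HFD, was past the unadjusted limit for Hspg2 alone of 10 members (edgeR, adjusted p = 0.363), where 12.2% of all genes were and 0.683% passed the adjusted limit.

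The direction of the Hspg2 difference turned with the rRNA-linked share. The HFD-C mice of high share had 206 to 245 CPM, those of low share had 124 and 95.5 CPM, and the 24 runners, all of low share, had 69.4 to 239 CPM with a median of 139.5. Against the low-share HFD-C mice, Hspg2 was higher by 0.26 in HFD-U and by 0.39 in all runners on the log2 scale. Neither passed the unadjusted limit. One of these 2 HFD-C mice, numbered 6, was the lowest of its group in 8 of 10 members. With the share as a covariate Hspg2 was higher by 0.54 in HFD-25%, past the unadjusted limit (edgeR, adjusted p = 0.336). The HFD-C mouse numbered 6 and the HFD-50% mouse numbered 4 were also left out, a choice made after seeing the data. Hspg2 was then at -0.62 in HFD-U and -0.47 in all runners, both past that limit (edgeR, adjusted p = 0.278 and adjusted p = 0.121). NFD-C, all of high share, had 155 to 268 CPM. Running and the share cannot be told apart in these libraries beyond the 2 HFD-C mice of low share. Fibroblast markers moved as well, since 3 of 10 were lower in HFD-U and in HFD-50%, 4 in HFD-25% and 5 in HFD-75% by the unadjusted limit, and none was higher. Of all genes tested, 5.46 to 10.7% passed in these comparisons in either direction. The summed level of the fibroblast markers was 462 to 828 CPM in HFD-C and 225 to 670 CPM in the runners, with no marker at 0, and their part in the Hspg2 result was not tested.

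**Figure D4:**
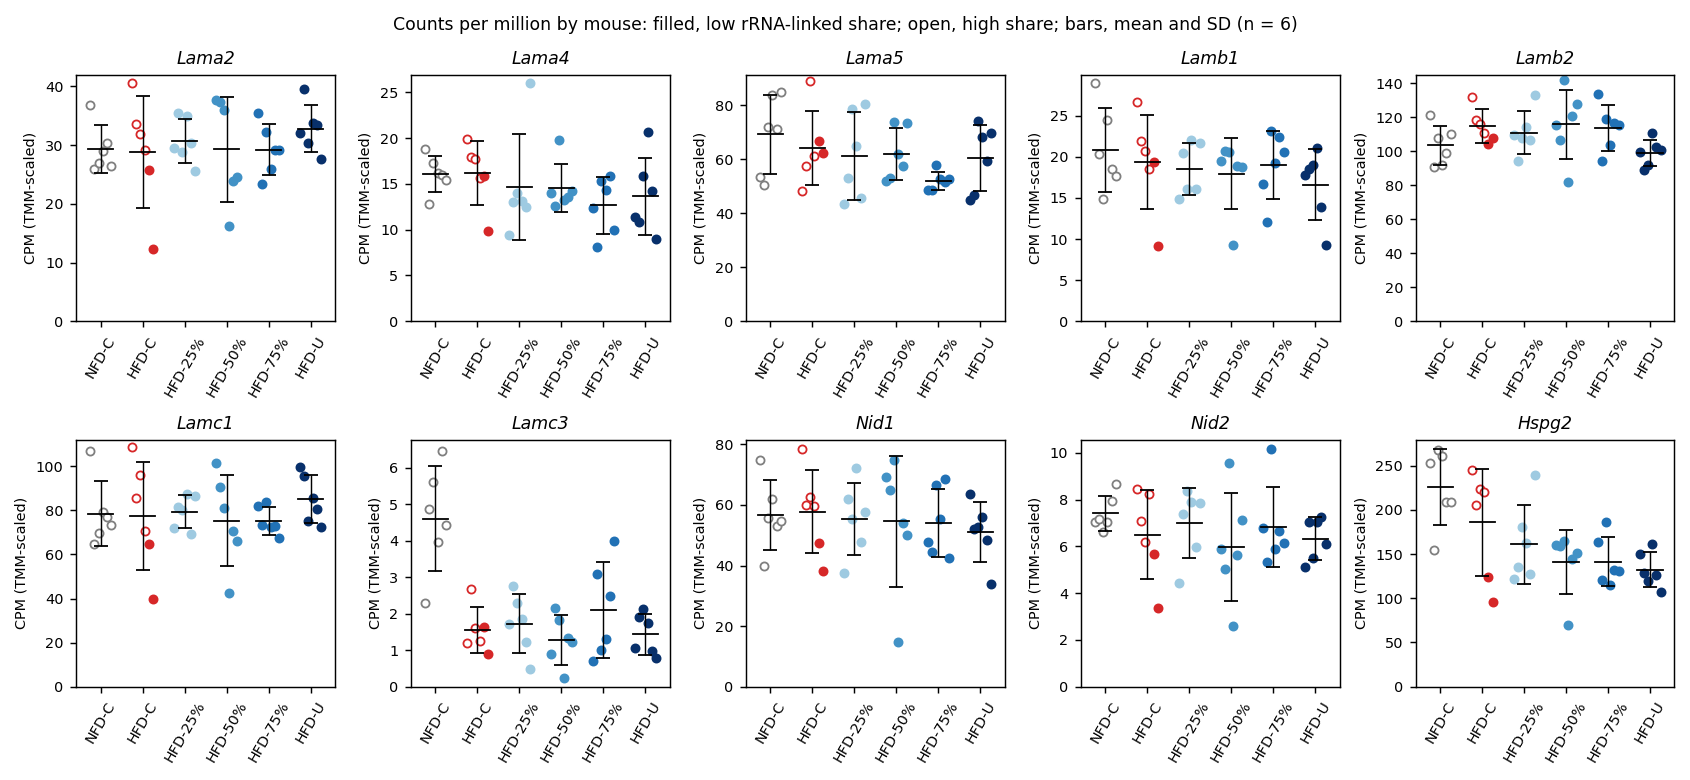
Level (CPM) of each member by mouse and group; filled points are libraries with a low rRNA-linked share and open points those with a high share, and bars give the mean and SD of 6 mice. Most members overlap across groups, Lamc3 is higher in NFD-C (2.28 to 6.45 CPM), and the HFD-C mouse numbered 6 and the HFD-50% mouse numbered 4 lie low in most panels.

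Over all 6 groups, 2 of 10 members passed the unadjusted limit for any difference, where 12.2% of all genes did, and 1.45% of all genes passed the adjusted limit. Lamc3 passed after adjustment (edgeR, adjusted p = 0.0236), and Hspg2 did not (adjusted p = 0.119). Hspg2 passed adjustment in DESeq2 (adjusted p = 0.0210), where 445 of 12053 genes did. Hspg2 also passed in edgeR without the HFD-C mouse numbered 6 and the HFD-50% mouse numbered 4 (adjusted p = 0.0189), where 160 of 12058 genes did. With the share as a covariate the adjusted p of Lamc3 in edgeR was 0.216, and Hspg2 did not pass the unadjusted limit. HFD-50% was set against HFD-U because the study compared the exercise groups with each other, and 0 of 9 members passed (12.4% of all genes unadjusted, 0.00844% adjusted). Lamb2 had a log2 fold change of 0.23 ± 0.13 there (SE; edgeR, adjusted p = 0.465), and it passed the unadjusted limit without the HFD-50% mouse numbered 4.

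Beyond the group means, most members varied together from mouse to mouse. The HFD-C mouse numbered 6 was the lowest of its group in 8 of 10 members and the HFD-C mouse numbered 1 was the highest in 8. In HFD-50%, the mouse numbered 4 was the lowest in 8 members, with 14.6 CPM of Nid1 and 42.3 CPM of Lamc1. This mouse also had the lowest summed level of fibroblast markers of all mice, 225 CPM, and the HFD-C mouse numbered 6 had 462 CPM, the lowest of its group.

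Correlations were computed over the 36 mice on deviations of log2 CPM from the group mean, so that differences between groups do not enter. Of 45 pairs of members, 29 had an adjusted p of at most 0.05 for Pearson's r (100000 permutations within groups), and 24 did among the low-share libraries alone. All values of a mouse come from 1 library and share its scaling. The closest pair was Lama2 and Lamc1, chains of 1 trimer, with r = 0.90 and rho = 0.76 (permutation p = 1e-05 for both, the smallest that these permutations can give, adjusted p = 6.43e-05 and 0.000112). Without the 2 mice farthest from the median of Lama2, r was 0.76. It was 0.85 among the 26 low-share and 0.92 among the 10 high-share libraries. Lamc1 and Hspg2 had r = 0.81, which was 0.62 without the 2 farthest mice, and Lamc1 and Nid1 had r = 0.80, which was 0.73 without them.

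Lama5 and Lamc3 stood apart from this pattern. The mean r with the other 9 members was 0.08 for Lama5 and 0.15 for Lamc3, against 0.43 to 0.59 for the remaining 8. Lama5 had r = -0.22 with Lama2 and 0.41 with Lama4. Within the sets of libraries not all pairs held. Nid2 and Hspg2 had r = 0.77 among the low-share libraries and -0.15 among the 10 high-share ones. Over all 36 mice r was 0.74, which was 0.49 without the HFD-C mouse numbered 6 and the HFD-50% mouse numbered 4. Over all 36 mice Nid2 had r = 0.66 with Lama2, 0.63 with Lamb1 and 0.62 with Lamc1. Without those 2 mice these values were 0.28, 0.29 and 0.19, and among the high-share libraries they were 0.06, -0.02 and -0.12.

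**Figure D5:**
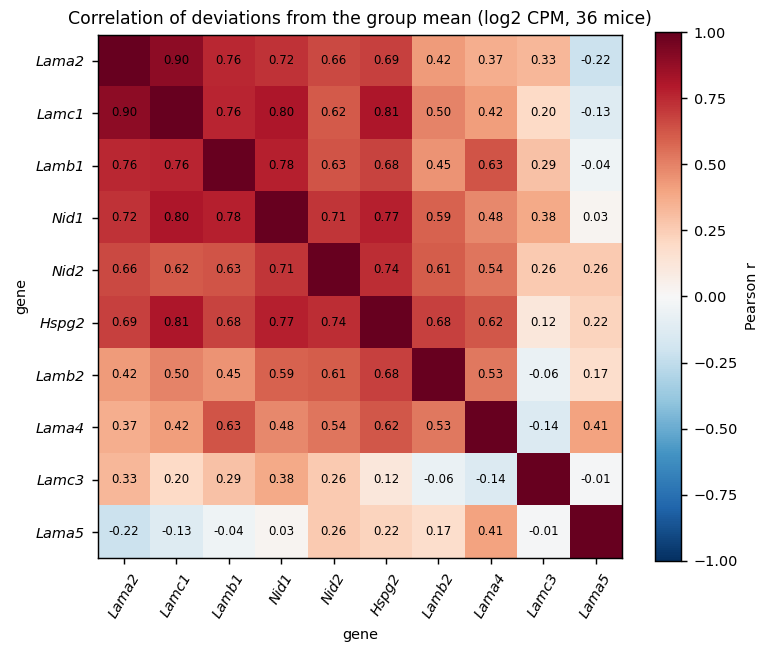
Pearson's r between members over 36 mice, on deviations of log2 CPM from the group mean, with red for positive and blue for negative values. Lama2, Lamc1, Lamb1, Nid1, Nid2 and Hspg2 form a block over all 36 mice, with r = 0.90 for Lama2 and Lamc1. Without the HFD-C mouse numbered 6 and the HFD-50% mouse numbered 4, the r of Nid2 falls from 0.62 to 0.19 with Lamc1. With Hspg2 it falls from 0.74 to 0.49. The row of Lama5 runs from -0.22 with Lama2 to 0.41 with Lama4.

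The genes that were no members but whose deviations were most like the mean of the members were Lrp1 (r = 0.91), Antxr2 (0.89), Cd34 (0.88), Ltbp4 (0.88) and Golim4 (0.88), over the same 36 mice. Of the members, Hspg2 and Nid1 had r = 0.90 and 0.89 with that mean, of which they are a part. Lama5 had 0.24.

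Of 14 tested genes of the collagen IV network and other basement membrane components, 3 were lower and 1 was higher in HFD-25%, and 2 were lower and 1 was higher in HFD-50%, by the unadjusted limit, which 6.98 and 10.7% of all genes passed. Only 1 passed in each of HFD-75% and HFD-U, and it was lower. With all runners together 3 were lower and 1 was higher, against 9.27% of all genes. Col15a1, a collagen that anchors the basement membrane to the interstitial matrix, had log2 fold changes of -0.70 ± 0.21 in HFD-25%, -0.86 ± 0.24 in HFD-50% and -0.54 ± 0.25 in HFD-75% (SE; edgeR, adjusted p = 0.452, adjusted p = 0.200 and adjusted p = 0.892). With all runners together it was -0.61 ± 0.18 (adjusted p = 0.164). For any difference among the 6 groups Col15a1 passed after adjustment (edgeR, adjusted p = 0.00518). Sparc, a collagen-binding matricellular protein, was lower in HFD-U by a log2 fold change of -0.45 ± 0.13 (edgeR, adjusted p = 0.539). Col4a1 and Col4a2, the main collagen IV chains, had -0.26 and -0.31 in HFD-U and did not pass. None of these genes passed between NFD-C and HFD-C.

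Of 21 laminin receptors and members of the dystrophin complex, 2 were lower in HFD-50% and 1 was higher in HFD-U by the unadjusted limit, and 0 passed in HFD-25%, against 10.7, 5.46 and 6.98% of all genes. In HFD-50% against HFD-U 1 was higher and 2 were lower (12.4% of all genes). The 2 that were lower in HFD-50% than in HFD-C were Sspn (sarcospan) and Sgcd (delta-sarcoglycan), at -0.43 ± 0.18 and -0.55 ± 0.24 (SE; edgeR, adjusted p = 0.424 and adjusted p = 0.438). Dtnb, which encodes beta-dystrobrevin, was at 0.75 ± 0.29 in HFD-U. Of 17 tested genes of dystroglycan glycosylation, the modification that laminin binds, 2 were higher and 2 lower in HFD-50% and 0 passed in the other exercise groups. Of 12 endothelial markers, 0 passed the unadjusted limit in HFD-U, 2 were higher in HFD-75% and 6 were higher in each of HFD-50% and HFD-25%, while the log2 fold changes of Lama4 were below 0 in all 4 groups. The shares of all genes were 5.46% in HFD-U, 5.47% in HFD-75%, 10.7% in HFD-50% and 6.98% in HFD-25%. The endothelial markers Cldn5 and Egfl7 passed after adjustment for the dose response (edgeR, adjusted p = 0.0108 and adjusted p = 0.0366) and for any difference (adjusted p = 0.0196 and adjusted p = 0.0429).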

How the data were processed

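Gastrocnemius RNA of 36 mice was measured by RNA-seq. The authors selected poly(A) RNA, sequenced 150 bp paired-end reads, aligned them with Hisat2 v2.0.5 and used featureCounts v1.5.0-p3 for counting; the deposited values are raw counts per gene and library. The submitters' processing notes name mm10, but the chromosome sequences beside the counts are those of GRCm39, and gene positions are given in that build. Promoters are from GRCm38.p6 and were not mixed with them. The strand setting of the counting is not given in the sources used here.

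Counts were fitted in R 4.3.3 with edgeR 4.0.16 (quasi-likelihood F-test, two-sided, TMM factors), for genes whose counts averaged 25 or more over the fitted libraries, with Benjamini-Hochberg adjustment over all genes of a fit. Each comparison used its own groups only. Each library was taken as 1 mouse, so p-values measure the spread between mice. Correlations used log2 CPM with a prior count of 1. Ratios were tested by exact permutation.

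The members and gene lists were chosen with earlier results of these data known. Named genes were all members, of each pathway list the 3 with the smallest p in a comparison, and the 5 genes most like the members' mean; some genes that the rule names are not reported here. The fits were tested on simulated data. Alternatives were DESeq2 1.42.0, no minimum count, RLE factors, a replicate block, the rRNA-linked share as a covariate, low-share libraries (under 1.5%) alone, leaving out mice numbered 1 or each mouse, and 1 fit of all groups. Leaving out 2 mice that stand apart and high-share libraries alone were added after seeing the data. For pairing, deviations of same-numbered mice from their group means were correlated: all 6 pairs of HFD-U and HFD-C were above 0.1 (0.123 to 0.504), and 1 to 5 of 6 pairs in the other comparisons. Mice of different numbers were not correlated, so these values alone do not show a pairing.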

Additional observations from a re-analysis of the deposited data

Results flagged for a closer look

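In 6 of the 60 sets of 6 mice examined (10 members in 6 groups), the highest or lowest mouse lay far from the rest by Dixon's criterion at the 95% level, which chance alone flags in about 1 in 20 groups. Lama4 was at 26.0 CPM in the HFD-25% mouse numbered 6 against 9.43 to 14.0 CPM in the others, and at 19.8 CPM in the HFD-50% mouse numbered 3 against 12.5 to 14.2 CPM. Without the first of these mice, Lama4 passed the unadjusted limit in HFD-25%. The HFD-50% mouse numbered 4 was low in Lamb1 at 9.26 CPM, against 18.8 to 20.7 CPM, and in Hspg2 at 69.4 CPM, against 144 to 165 CPM. Lamc1 was at 107 CPM in the NFD-C mouse numbered 1, against 64.8 to 79.3 CPM. Nid2 was at 10.2 CPM in the HFD-75% mouse numbered 3, against 5.35 to 6.80 CPM.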

How the results depend on the processing

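At an unadjusted p of 0.05 and out of 10 members (9 where Lamc3 was under the minimum), the number called moved as follows. With a covariate for the rRNA-linked share it was 4 in HFD-25%, 3 in HFD-75%, 0 for all runners, 0 for the dose response and 1 for any difference, where 0 then passed adjustment. With low-share libraries alone, which hold 2 HFD-C mice and no NFD-C mouse, it was 2 in HFD-25%, 3 in HFD-75%, 2 for all runners, 0 for the dose response and 0 for any difference, with or without adjustment. In HFD-U the number stayed at 2 under both, but the members called were Lama2 (0.79 with the covariate, 0.78 in low-share libraries) and Lamc1 (0.71 and 0.70), both higher, in place of Hspg2 and Lamb2, both lower. Where a fit called the member, signs turned for Hspg2 in HFD-25% (0.54 with the covariate), in HFD-U (0.27 with the covariate, 0.26 in low-share libraries) and in all runners (0.21 and 0.39). In HFD-75% they turned for Lamc1 (0.49 and 0.52) and Nid1 (0.39 with the covariate). With no call in either fit, the sign also changed in 92 of 771 values compared over all alternatives except leaving out each mouse. The cause was not tested. Without the mice numbered 1 the number called was 0 in HFD-U, for all runners and for the dose response. Of all genes, 564 of 11903, 1053 of 12002 and 1562 of 12002 passed there. A single fit over all groups gave 0 in HFD-75%, 1 in HFD-U and 1 for HFD-50% against HFD-U, and no minimum count gave 1 in HFD-U. Of all genes, the single fit called 675, 642 and 1748 of 12053, and no minimum count called 2251 of 25964. DESeq2 called 1 after adjustment in NFD-C and 2 for any difference, where 2 of 12247 and 445 of 12053 genes passed adjustment. Without the 2 mice that stand apart, an alternative chosen after seeing the data, the number called was 1 in HFD-50% and 3 in HFD-75%. It was 1 for HFD-50% against HFD-U, 2 for the dose response and 2 for any difference after adjustment. Of all genes, 1246 of 12149, 807 of 12162, 1338 of 11829 and 1432 of 12008 passed there, and 160 of 12058 passed for any difference after adjustment.

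Leaving out each mouse in turn gave 0 to 1 called in HFD-25%, in HFD-50% and in HFD-50% against HFD-U, 0 to 3 in HFD-U and in HFD-75%, and 1 in NFD-C each time, with 0 after adjustment throughout these. The replicate block gave 2 in HFD-75%, adding Lama4 at -0.36 (edgeR, adjusted p = 0.719), where the mice share only a number, and 3 in HFD-U. For any difference among the 6 groups the block added Lama5, past the unadjusted limit (edgeR, adjusted p = 0.123), where 2450 of 12053 genes were. It moved no other count by over 1.5 times. RLE factors moved none of the counts. The low counts of Lamc3, 4 to 107 per library, limit its precision.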
